A study of Bubalus bubalis with 12 samples.

Results

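Chemokines, interleukins and their receptors were examined in the corpus luteum (CL), the progesterone-secreting gland left in the ovary after ovulation. Members were taken by gene symbol: CCL, CXCL, CCR and CXCR with a number, IL with a number, CSF with a number, the interferon receptors IFNAR and IFNGR, and IFNG, LIF, LIFR, OSM and OSMR. The interleukin 1 and interleukin 18 genes, 10 symbols in all, were not included. The rule found 97 probe sets of 76 genes among 9155 genes with a single symbol on the array, and each gene was represented by its probe set with the highest mean over the 12 arrays. The 76 genes were 25 chemokine ligands, 8 chemokine receptors, 15 interleukins, 16 interleukin receptor subunits, 5 colony stimulating factors and receptors, 3 genes of the LIF and OSM family, and 4 genes of interferon gamma and the interferon receptors. No probe set with a single symbol was found for CCR1, CCR2, CCR7, IL6ST, LIFR or IFNGR1, so these receptors were not analysed here.

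Whole CL tissue came from buffalo cows on cycle day 11, and each of the 12 arrays was labelled as a biological replicate, taken here as 1 animal. The 4 control animals were untreated (0 h), and the treated animals were injected into muscle with 500 µg of cloprostenol, which mimics prostaglandin F2α (PGF2α). The CL was collected 3 h later from 2 animals, numbered 1 and 3, 6 h later from 3 animals and 18 h later from 3 animals. Total RNA was measured on the Affymetrix GeneChip Bovine Genome Array, whose probes were designed on cattle sequence, and all values are log2 RMA values (robust multichip average).

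Chemokines are small secreted proteins that guide leukocytes along a gradient by acting on G protein coupled receptors on the cell surface. Interleukins, colony stimulating factors and interferons act on receptor subunits that pair at the membrane and signal largely through Janus kinases (JAK) and STAT proteins. In ruminants, a fall in progesterone and an entry of macrophages and other leukocytes accompany regression of the CL after PGF2α. The array measures RNA of the whole gland, so more cells of a type and more RNA per cell cannot be told apart.

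The mean of 10 steroidogenic luteal markers lay between 13.01 and 13.41 in the controls, so that markers of the labelled tissue were present, and between 12.12 and 12.64 at 18 h. Members were mostly dim: 49 of 76 (64.5%) lay below the median brightness of all probe sets. Control replicate 3 stood apart from the other controls for these genes. It lay more than 1 log2 unit above every other control in 13 of 76 members (17.1%), against 323 of 24016 probe sets (1.34%), and in 0 members did it lie more than 1 log2 unit below them. The mean of 8 markers of all leukocytes was 9.26 in control replicate 3, between 7.52 and 7.64 in the other controls, between 8.13 and 8.36 at 3 h, between 8.18 and 8.49 at 6 h and between 8.59 and 9.56 at 18 h. For members whose call against 0 h changed without control replicate 3, the fit without it is therefore given for at least 1 time. Array values, means or differences from all arrays are given beside it. The arrays at 3 h lay more than 1 log2 unit apart in 9 of 76 members (11.8%) and in 5.44% of all probe sets. Control replicates 1 and 4 were nearly alike (r = 0.997), with 0 members and 6 of 24016 probe sets more than 2-fold apart. Every other pair of arrays of the same time had 220 to 1306 such probe sets. Whether replicates 1 and 4 are independent animals was not tested, and averaging both into 1 sample is given as an alternative setting in the closing section.

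With all 12 arrays 9 of 76 members passed the test in at least 1 comparison, 5 receptors or receptor subunits and 4 ligands. The threshold for a call was an adjusted p of 0.05 in limma over 24016 probe sets. At 6 h against 0 h, 5 of 76 members (6.58%) were called, all up regulated: the chemokines CXCL8 and CCL20 and the receptors CXCR4, IL4R and IFNAR1. Of all probe sets 11.3% were called in that comparison, 5.26% as up regulated, and of the 9155 genes 14.2% were called. At 18 h against 0 h, 6 of 76 members (7.89%) were called: CXCR4, IFNAR1, CSF2RB, CSF2 and IL13RA1 were up regulated and CCL21 was down regulated. There 12.3% of all probe sets were called, 5.71% as up regulated, and 15.9% of the 9155 genes. The members' shares of calls were thus below those of the whole table in both comparisons, and their shares of up regulated genes (5 of 76 at each time) were close to it. At 3 h against 0 h, 0 members were called by limma (5 had an unadjusted p under 0.05), against 0.0208% of probe sets. A single F test over the 3 times against 0 h called 3 of 76 members, CXCR4, IFNAR1 and CSF2, against 10.9% of probe sets. The median member differed from 0 h by 0.05 log2 units at 3 h, 0.03 at 6 h and 0.06 at 18 h, and the median probe set by -0.01, -0.04 and -0.02.

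**Figure D1:**
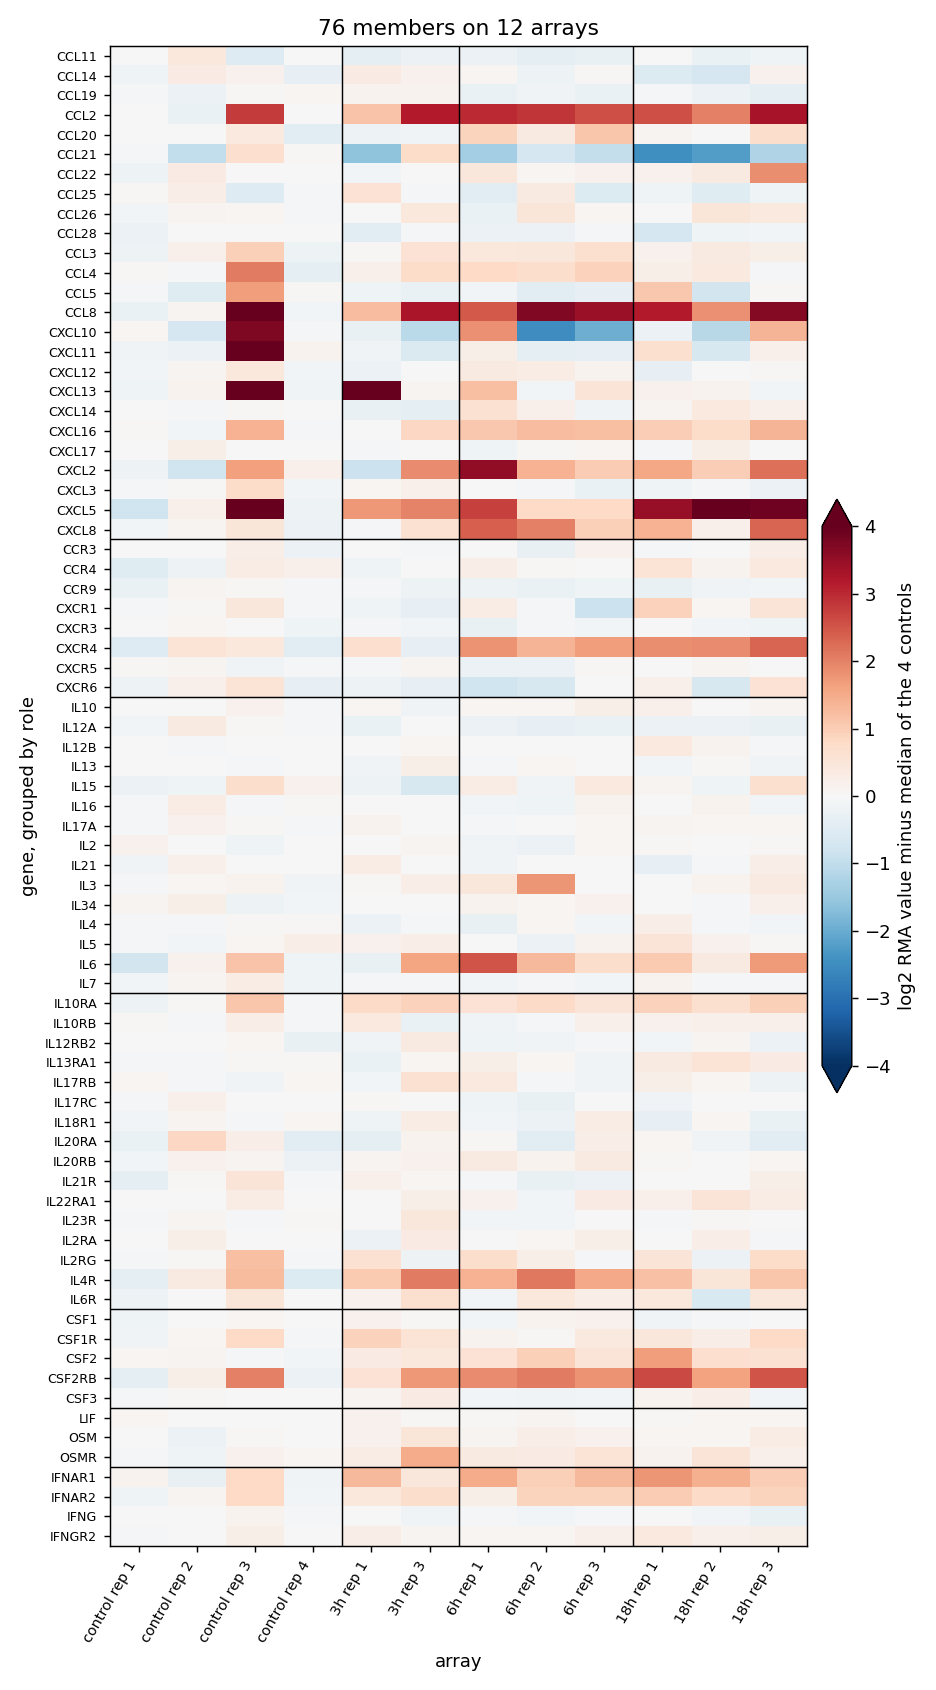
Each row is 1 of the 76 members, grouped by role, and each column 1 of the 12 arrays; colour gives the log2 RMA value minus the median of the 4 controls, from -4 (blue) to 4 (red), with values beyond the scale in the end colour. Most rows are near white on all arrays, while control replicate 3 lies more than 1 log2 unit above every other control for 13 members, among them CCL8, CXCL10, CXCL11, CXCL13 and CXCL5.

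CXCR4, the receptor for the chemokine CXCL12, gave the clearest change among all members. Its log2 value was 8.45, 9.51, 9.38 and 8.56 in control replicates 1 to 4, and 9.63 and 8.66 in the arrays at 3 h. It was 10.78, 10.32 and 10.64 at 6 h and 10.82, 10.86 and 11.29 at 18 h. Every array at 6 h and 18 h lay above every control and every array at 3 h. CXCR4 was up regulated 3.04-fold at 6 h (log2 1.60 ± 0.30, adjusted p = 0.00771) and 4.04-fold at 18 h (log2 2.01 ± 0.30, adjusted p = 0.00175; values after ± are standard errors of the fit). Both calls held in each of the 12 fits that left out 1 array. The log2 differences were 1.74 at 6 h and 2.15 at 18 h without control replicate 3. CXCL12 itself had means of 8.84 ± 0.25 (SD, n = 4) at 0 h, 9.03 ± 0.12 (SD, n = 3) at 6 h and 8.67 ± 0.20 (SD, n = 3) at 18 h and was not called at any time.

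The other 7 chemokine receptors on the array (CCR3, CCR4, CCR9, CXCR1, CXCR3, CXCR5 and CXCR6) were not called in any comparison. CXCR1, a receptor for CXCL8 on neutrophils, ranged from 5.53 to 6.04 in the controls and from 5.67 to 6.52 at 18 h, so the groups overlapped. CXCR6, the receptor for CXCL16, ranged from 6.20 to 7.08 in the controls and from 5.74 to 6.51 at 6 h.

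CXCL8 and CCL20 were the chemokine ligands called at 6 h. CXCL8 (interleukin 8), which attracts neutrophils, was 7.75, 7.996, 8.36 and 7.63 in control replicates 1 to 4, 7.84 and 8.48 at 3 h, 10.27, 9.88 and 8.83 at 6 h and 9.26, 8.07 and 10.21 at 18 h. All 3 arrays at 6 h lay above the controls, whereas 1 array at 18 h (replicate 2) lay among them. CXCL8 was up regulated 3.3-fold at 6 h (log2 1.72 ± 0.45, adjusted p = 0.0326), and its difference at 18 h was log2 1.24 ± 0.45 (adjusted p = 0.101). The call at 6 h was lost in 5 of 12 fits with 1 array left out (control replicate 1, 2 or 4, or 6 h replicate 1 or 2), where the adjusted p reached 0.133 and the log2 difference stayed between 1.42 and 2.14. The 6 measured markers of neutrophils and eosinophils had 0 calls at 6 h and 18 h by limma, with 1 and 0 at an unadjusted p under 0.05.

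CCL20, which attracts cells through the receptor CCR6, was 6.73, 6.69, 7.103 and 6.25 in the controls, 6.51 and 6.56 at 3 h, 7.61, 7.08 and 7.82 at 6 h and 6.83, 6.69 and 7.41 at 18 h. The groups at 0 h and 6 h overlapped by a small margin, since 6 h replicate 2 (7.08) lay just under control replicate 3 (7.103). CCL20 was up regulated 1.76-fold at 6 h (log2 0.81 ± 0.23, adjusted p = 0.0438), and its difference at 18 h was 0.28 ± 0.23. Leaving out control replicate 1, 2 or 4, 6 h replicate 1 or 3, or 18 h replicate 1 ended the call at 6 h (adjusted p up to 0.151).

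CCL21, the lymphoid chemokine that guides dendritic cells and T cells through CCR7, was the only member down regulated with all 12 arrays. It was 9.88, 8.95, 10.60 and 9.99 in the controls, 8.32 and 10.67 at 3 h, 8.58, 9.26 and 8.96 at 6 h and 7.47, 7.69 and 8.73 at 18 h. All arrays at 18 h lay below all controls, and of the arrays at 3 h 1 was below and 1 above all controls. CCL21 was down regulated 3.71-fold at 18 h (log2 -1.89 ± 0.53, adjusted p = 0.0376). This call was lost in 7 of 12 fits with 1 array left out (control replicate 1, 3 or 4, 6 h replicate 2 or 3, or 18 h replicate 1 or 2), with adjusted p up to 0.149, and with trended and robust eBayes (adjusted p = 0.0543). Its difference was log2 -1.64 (adjusted p = 0.0666) without control replicate 3. CCL19, the other ligand of CCR7, ranged from 5.30 to 5.60 in the controls and from 5.17 to 5.47 at 18 h and was not called. Of 15 measured markers of T cells and NK cells 2 were called down at 6 h (LCK and CD247) and 1 at 18 h (LCK). Their part in the fall of CCL21 was not tested.

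**Figure D2:**
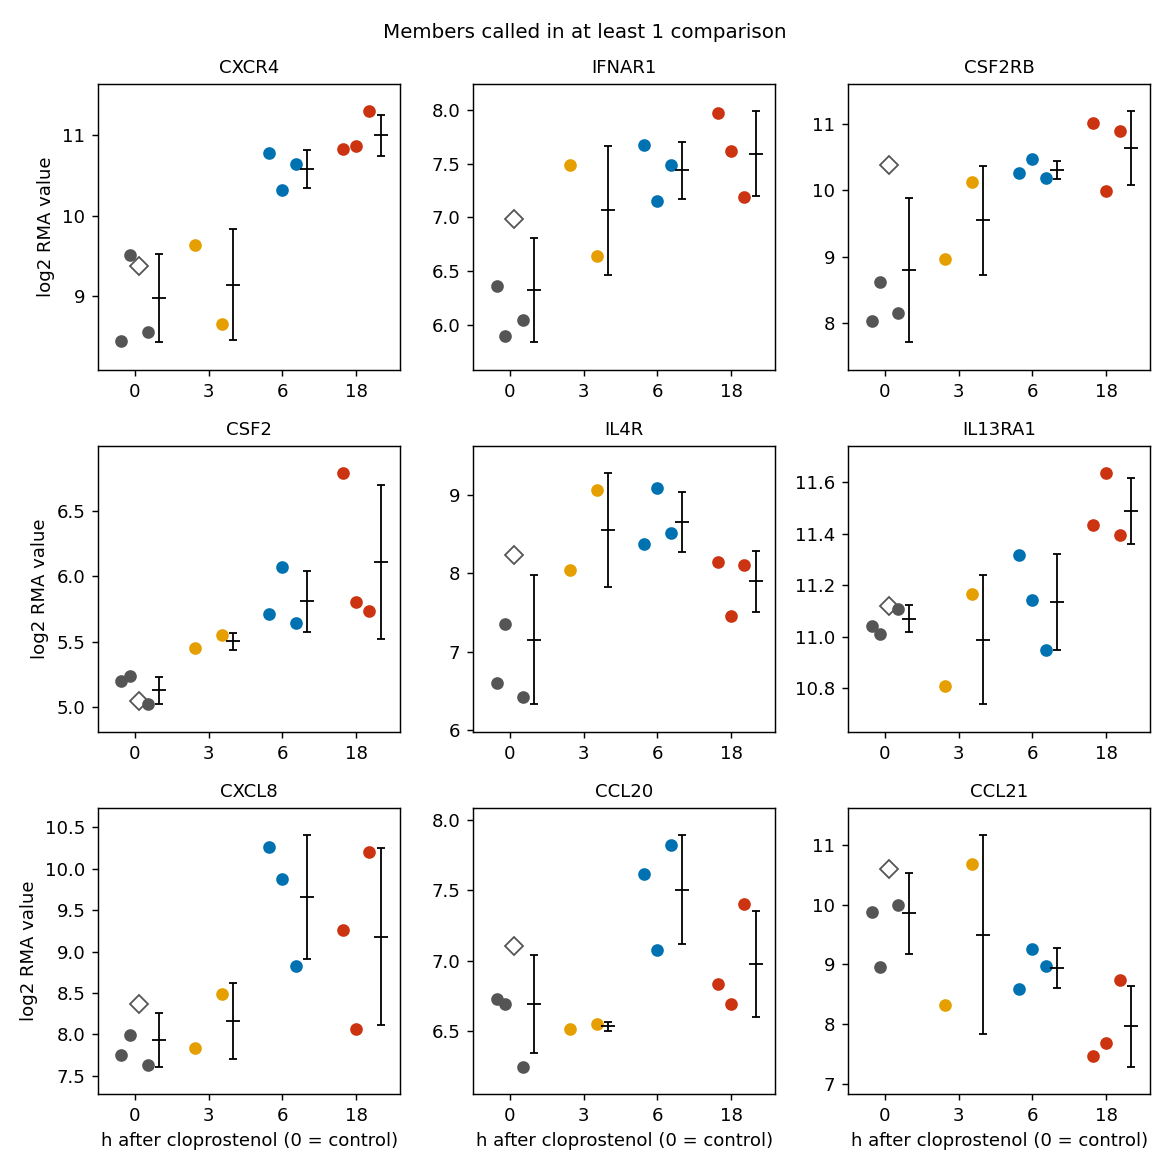
The 9 members called in at least 1 comparison are plotted as log2 RMA values (vertical axis, a scale of its own for each gene) against hours after cloprostenol (0 = control); points are arrays, the open diamond is control replicate 3, and bars give the group mean ± SD. CXCR4 is above every control on all arrays at 6 h and 18 h, CCL21 is below every control at 18 h, and control replicate 3 lies within the 18 h range for CSF2RB.

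Among interleukin receptor subunits, IL4R was called at 6 h and IL13RA1 at 18 h. IL4R, which binds interleukin 4 and also forms the interleukin 13 receptor together with IL13RA1, was 6.61, 7.35, 8.23 and 6.42 in the controls, 8.04 and 9.06 at 3 h, 8.37, 9.09 and 8.51 at 6 h and 8.14, 7.45 and 8.10 at 18 h. All arrays at 6 h were above all controls, and control replicate 3 was above all arrays at 18 h. IL4R was up regulated 2.83-fold at 6 h (log2 1.50 ± 0.41, adjusted p = 0.0368), with differences of 1.40 ± 0.46 at 3 h and 0.75 ± 0.41 at 18 h that were not called. The call at 6 h held in 4 of 12 fits with 1 array left out; it was lost without control replicate 1, 2 or 4, without any 6 h array, or without 18 h replicate 1 or 3 (adjusted p up to 0.148). IL4R was called without control replicate 3 at 6 h (log2 1.86, adjusted p = 0.00483) and at 18 h (log2 1.11, adjusted p = 0.0447). A second, dimmer probe set of IL4R differed by 0.42 ± 0.15 at 6 h (adjusted p = 0.101).

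IL13RA1 changed little in size but with a small spread. It was 11.04, 11.01, 11.12 and 11.11 in the controls, 10.81 and 11.17 at 3 h, 11.32, 11.14 and 10.95 at 6 h and 11.44, 11.63 and 11.40 at 18 h, where all arrays were above all controls. The rise at 18 h was 1.34-fold (log2 0.42 ± 0.12, adjusted p = 0.0379) and was lost in 7 of 12 fits with 1 array left out (control replicate 1, 2 or 4, 6 h replicate 2, or any 18 h array; adjusted p up to 0.136). It was also lost when arrays were centred on their medians and when all probe sets of the gene were averaged.

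The ligands of these receptors, IL4 and IL13, were dim and not called. IL4 ranged from 4.67 to 4.79 in the controls and from 4.46 to 5.001 over the treated arrays, and IL13 from 5.51 to 5.62 and from 5.45 to 5.83. IL10RA, a subunit of the receptor for the anti-inflammatory interleukin 10, was 6.50, 6.75, 7.80 and 6.64 in the controls and lay between 7.21 and 7.64 on all 8 treated arrays, above every control other than replicate 3. With all arrays it was not called (log2 0.62 ± 0.29 at 3 h, 0.39 ± 0.25 at 6 h and 0.61 ± 0.25 at 18 h). Without control replicate 3 it was called at each time, by log2 0.91 (adjusted p = 0.0297) at 3 h, 0.68 (adjusted p = 0.00495) at 6 h and 0.91 (adjusted p = 0.000918) at 18 h, and it was then the only member called at 3 h. With control replicates 1 and 4 averaged as well, IL10RA was not called at 3 h. IL10 itself stayed between 6.29 and 6.68 on all 12 arrays. IL2RG, the gamma chain shared by several interleukin receptors, and IL6R, the binding chain for interleukin 6, were not called, and IL2RG in control replicate 3 (9.07) was above all other arrays.

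None of the 15 interleukins was called by limma in any comparison; at 6 h 3 and at 18 h 1 had an unadjusted p under 0.05. IL6, an acute phase cytokine, was 4.44, 5.36, 6.33 and 4.999 in the controls, 4.88 and 6.74 at 3 h, 7.69, 6.47 and 5.89 at 6 h and 6.23, 5.53 and 6.89 at 18 h. The arrays at 6 h and 18 h overlapped the controls through control replicate 3 alone, whereas 3 h replicate 1 lay among the other controls, and the difference at 6 h was log2 1.40 ± 0.57 (adjusted p = 0.147). IL12A, a subunit of interleukin 12, was 4.75 to 5.20 in the controls and 4.52 to 4.62 at 6 h, a difference of -0.34 ± 0.12 (adjusted p = 0.0892) in a dim probe set. IL15, which supports NK and T cells, ranged from 5.32 to 6.24 in the controls and from 4.91 to 6.19 on the treated arrays.

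Of the 5 colony stimulating factors and receptors, CSF2RB and CSF2 were called at 18 h. CSF2RB, the beta chain that the receptors for GM-CSF (CSF2), interleukin 3 and interleukin 5 share, was 8.03, 8.62, 10.39 and 8.15 in the controls, 8.96 and 10.13 at 3 h, 10.27, 10.47 and 10.19 at 6 h and 11.01, 9.99 and 10.90 at 18 h. Control replicate 3 lay within the range of the treated arrays, and the other controls lay below all of them. CSF2RB was up regulated 3.57-fold at 18 h (log2 1.84 ± 0.51, adjusted p = 0.0367), and its difference at 6 h was 1.51 ± 0.51 (adjusted p = 0.0811). Without control replicate 3 it was called at both times, by log2 2.04 (4.12-fold, adjusted p = 0.00295) at 6 h and 2.37 (5.16-fold, adjusted p = 0.00103) at 18 h. The 18 h call was lost in 7 of 12 fits (without control replicate 1, 2 or 4, 6 h replicate 2 or 3, or 18 h replicate 1 or 3; adjusted p up to 0.14). It was also lost with trended and robust eBayes (adjusted p = 0.0529) and with only the arrays of the times compared (adjusted p = 0.0565).

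CSF2, a growth factor for granulocytes and macrophages, was 5.20, 5.24, 5.05 and 5.02 in the controls, 5.45 and 5.55 at 3 h, 5.71, 6.08 and 5.64 at 6 h and 6.79, 5.81 and 5.73 at 18 h. Every treated array was above every control. CSF2 was up regulated 1.97-fold at 18 h (log2 0.98 ± 0.22, adjusted p = 0.0138) in all 12 fits with 1 array left out, though its size rested in part on 18 h replicate 1: without it the log2 difference was 0.64. Its differences at 3 h (0.38 ± 0.25) and 6 h (0.68 ± 0.22, adjusted p = 0.0692) were not called. Its probe set was dim, brighter than only 26.9% of all probe sets, and it was not tested where the dimmest 40% were left out.

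The other ligands and receptors of these families were flat or not called. CSF1, the macrophage growth factor, stayed between 6.72 and 7.05 on all 12 arrays, and CSF3 between 5.75 and 6.22. CSF1R, the receptor on macrophages, was 8.34, 8.57, 9.28 and 8.42 in the controls and 8.94, 8.77 and 9.28 at 18 h; it was called at 18 h only without control replicate 3 (log2 0.55, adjusted p = 0.0391). IL3 and IL5, growth factors of myeloid cells and of eosinophils, lay at or below 4.61 on all arrays other than 6 h replicate 2, in which IL3 was 5.79.

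OSMR, the receptor subunit for oncostatin M, had 4 probe sets that did not give the same result. The brightest was 8.40, 8.30, 8.64 and 8.53 in the controls, 8.77 and 9.95 at 3 h, 8.84, 8.79 and 9.03 at 6 h and 8.61, 8.99 and 8.66 at 18 h. The 2 arrays at 3 h were far apart, and the difference there (log2 0.89 ± 0.25, adjusted p = 0.298) was 1.48 without 3 h replicate 1 (adjusted p = 0.00286) and 0.30 without 3 h replicate 3. At 6 h this probe set was not called (0.42 ± 0.22), while 2 dimmer probe sets were, by 0.89 ± 0.14 (adjusted p = 0.00402) and 0.43 ± 0.08 (adjusted p = 0.00891), and 1 of these was also called at 18 h (0.53 ± 0.14, adjusted p = 0.0312). OSM, the ligand, lay between 5.28 and 5.56 in the controls and between 5.60 and 6.02 on the treated arrays with no overlap, but its differences of 0.38 ± 0.13, 0.23 ± 0.11 and 0.21 ± 0.11 were not called. LIF stayed between 6.67 and 6.84 on all arrays.

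IFNAR1, one chain of the receptor for type I interferons, was called at both later times. It was 6.36, 5.89, 6.99 and 6.04 in the controls, 7.49 and 6.64 at 3 h, 7.67, 7.15 and 7.49 at 6 h and 7.97, 7.62 and 7.19 at 18 h. All arrays at 6 h and 18 h lay above all controls, with control replicate 3 the nearest. IFNAR1 was up regulated 2.17-fold at 6 h (log2 1.12 ± 0.29, adjusted p = 0.03) and 2.42-fold at 18 h (log2 1.27 ± 0.29, adjusted p = 0.0145). The 18 h call was lost without 18 h replicate 1 (adjusted p = 0.0747), and the 6 h call in 6 of 12 fits (without control replicate 1, 2 or 4, or any 6 h array; adjusted p up to 0.114).

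IFNAR2, the other chain, was 8.15, 8.45, 9.14 and 8.21 in the controls, 8.57, 9.23 and 9.23 at 6 h and 9.34, 9.09 and 9.23 at 18 h. It was not called with all arrays (log2 0.52 ± 0.23 at 6 h and 0.74 ± 0.23 at 18 h, adjusted p = 0.188 and 0.0631), and without control replicate 3 it was called at both times (0.74, adjusted p = 0.0199, and 0.95, adjusted p = 0.00532). IFNG, the interferon of T cells and NK cells, stayed between 3.96 and 4.42 on all arrays and was brighter than only 8.14% of probe sets. IFNGR2, a chain of its receptor, had means of 9.84 ± 0.13 (SD, n = 4) at 0 h and 10.06 ± 0.10 (SD, n = 3) at 18 h and was not called.

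The chemokines with the largest differences between arrays were those high in control replicate 3. CCL2, which attracts monocytes through CCR2, was 10.13, 9.85, 12.89 and 10.07 in control replicates 1 to 4, 11.26 and 13.28 at 3 h, 13.09, 12.95 and 12.69 at 6 h and 12.67, 12.12 and 13.38 at 18 h. The 8 treated arrays were all above control replicates 1, 2 and 4, and control replicate 3 lay within the treated range. With all arrays the differences were log2 2.17 ± 0.69 at 6 h (adjusted p = 0.0661) and 1.99 ± 0.69 at 18 h (adjusted p = 0.0854), and CCL2 was not called. Without control replicate 3 it was called at both times, 7.42-fold higher at 6 h (log2 2.89 ± 0.44, adjusted p = 0.00253) and 6.53-fold higher at 18 h (log2 2.71 ± 0.44, adjusted p = 0.0026). A second probe set of CCL2 gave 2.37 ± 0.78 at 6 h and 2.03 ± 0.78 at 18 h with all arrays.

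CCL8, a related monocyte chemokine, showed a wider gap. It was 5.76, 6.15, 10.87 and 5.93 in the controls, 7.28 and 9.32 at 3 h, 8.49, 9.74 and 9.50 at 6 h and 9.21, 7.88 and 9.71 at 18 h, so control replicate 3 was the highest of all 12 arrays. With all arrays it was not called (log2 2.07 ± 1.09 at 6 h), and without control replicate 3 it was 9.82-fold higher at 6 h (log2 3.30 ± 0.55, adjusted p = 0.00401) and 7.91-fold higher at 18 h (log2 2.98 ± 0.55, adjusted p = 0.00518).

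CXCL5 and CXCL16 were singled out after their values were seen. CXCL5, a neutrophil chemokine, was 4.45, 5.45, 9.26 and 5.04 in the controls, 6.98 and 7.22 at 3 h, 7.98, 6.03 and 6.06 at 6 h and 8.73, 9.22 and 9.13 at 18 h. The arrays at 18 h lay within 0.5 log2 units of each other and above all arrays other than control replicate 3. With all arrays the difference at 18 h was log2 2.97 ± 0.93 (adjusted p = 0.0612), and without control replicate 3 it was 4.04 ± 0.45 (16.5-fold, adjusted p = 0.000392). CXCL16, a membrane-bound chemokine and scavenger receptor, ranged from 10.70 to 10.86 in control replicates 1, 2 and 4, was 12.22 in control replicate 3 and ranged from 11.91 to 12.06 at 6 h. It was called without control replicate 3 at 6 h (log2 1.22, adjusted p = 0.00437) and 18 h (log2 1.07, adjusted p = 0.00675), and not with it. With all arrays the limma differences of CXCL16 were log2 0.86 ± 0.34 at 6 h (adjusted p = 0.135) and 0.71 ± 0.34 at 18 h (adjusted p = 0.215).

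**Figure D3:**
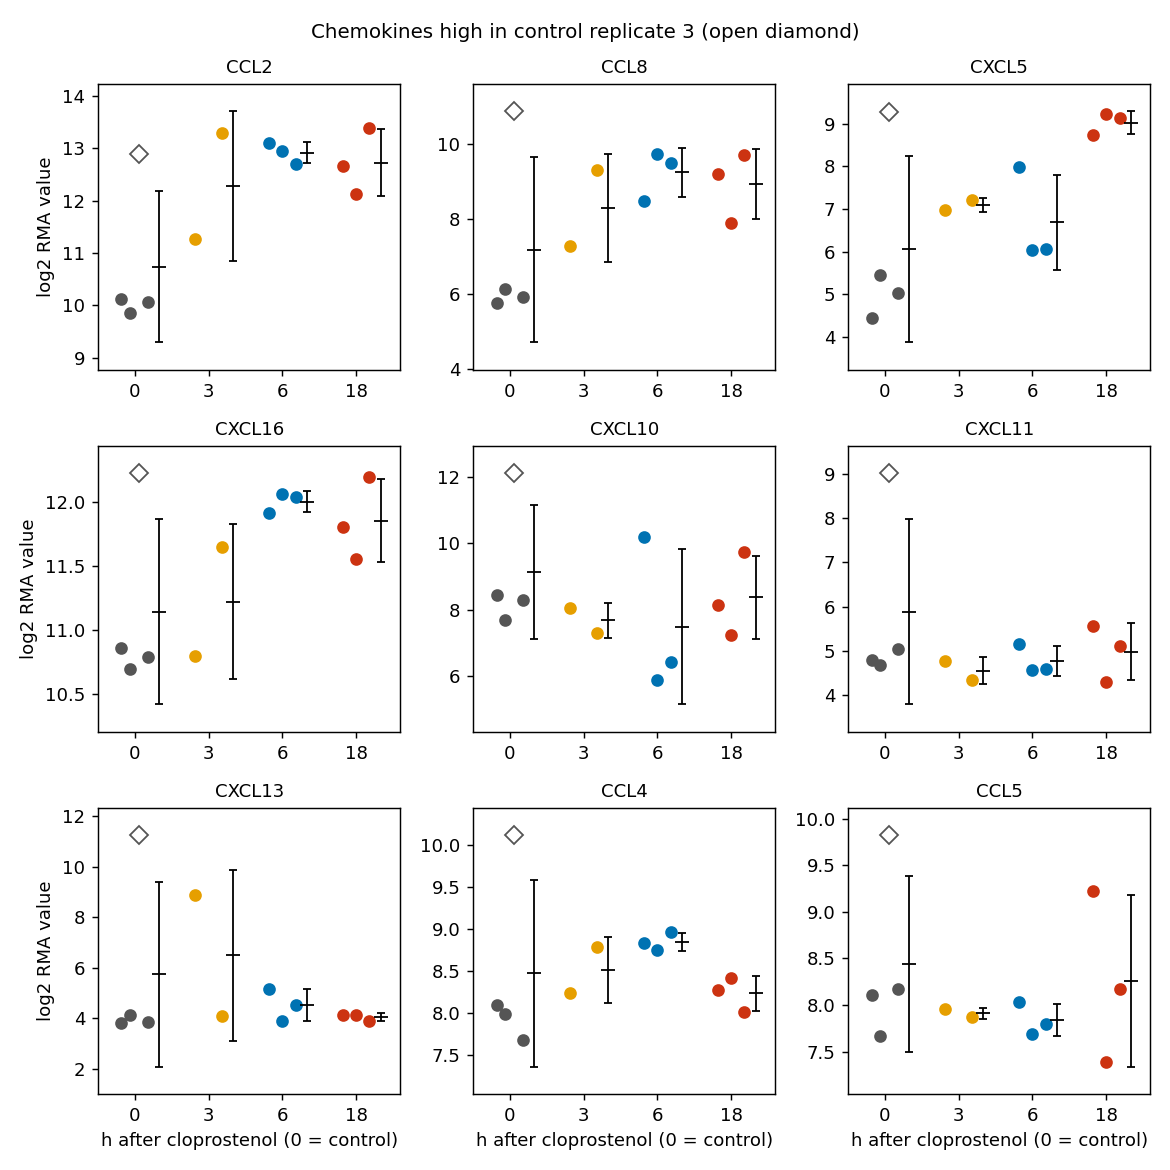
Chemokines that were high in control replicate 3 (open diamond) are plotted as log2 RMA values (vertical axis, a scale of its own for each gene) against hours after cloprostenol (0 = control), with points for arrays and bars for the group mean ± SD. For CCL2, CCL8, CXCL5 and CXCL16 all arrays at 18 h lie above control replicates 1, 2 and 4, while for CXCL10, CXCL11 and CXCL13 they do not. Control replicate 3 is above every treated array for all of these genes other than CCL2.

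A different pattern held for CXCL10, CXCL11 and CXCL13, the latter pair also singled out after their values were seen. CXCL10, an interferon-induced ligand of CXCR3, was 8.43, 7.68, 12.11 and 8.30 in the controls, 8.06 and 7.30 at 3 h, 10.18, 5.87 and 6.41 at 6 h and 8.14, 7.25 and 9.72 at 18 h. Replicate 1 at 6 h was far above the other two, and its differences were not called with or without control replicate 3. CXCL11, another ligand of CXCR3, was 9.01 in control replicate 3 and between 4.28 and 5.56 on the other 11 arrays. CXCL13, the B cell chemokine, was 11.23 in control replicate 3, 8.88 in 3 h replicate 1 and between 3.81 and 5.18 on the other arrays. The mean of 4 B cell markers was 7.21 in control replicate 3 and 7.06 in 3 h replicate 1, the highest values of the 12 arrays; the part of B cells in CXCL13 was not tested.

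CCL3, CCL4 and CCL5, which attract monocytes and lymphocytes, were also highest in control replicate 3, at 9.73, 10.11 and 9.82. CCL4 was 8.10, 7.99 and 7.68 in the other controls and 8.83, 8.75 and 8.96 at 6 h. None of these was called with all arrays, and without control replicate 3 CCL3 (log2 0.57, adjusted p = 0.0372) and CCL4 (log2 0.92, adjusted p = 0.00576) were called at 6 h. With all arrays the difference of CCL3 at 6 h was log2 0.32 ± 0.25. Its dimmer probe sets went opposite ways there (0.69 ± 0.42 and -0.29 ± 0.11), neither called. CXCL2, a ligand of CXCR2, was 4.60, 4.02, 6.44 and 5.02 in the controls and 8.37, 6.21 and 5.84 at 6 h, with a difference of log2 1.79 ± 0.77 (adjusted p = 0.171), and was not called in either fit. CCL14 had means of 6.36 ± 0.30 (SD, n = 4) at 0 h and 6.01 ± 0.46 (SD, n = 3) at 18 h.

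Without control replicate 3 the number of members called was 15 (19.7%) at 6 h, against 14.6% of probe sets, and 13 (17.1%) at 18 h, against 15.2% of probe sets. Of the 15 at 6 h 14 were up regulated and 1, the eosinophil chemokine CCL11, was down regulated (log2 -0.43, adjusted p = 0.0486), and all 13 at 18 h were up regulated. At 3 h the number was 1. With all arrays CCL11 had means of 5.52 at 0 h and 5.26 at 6 h and was not called. The 10 members added at 6 h were CCL2, CCL3, CCL4, CCL8, CCL11, CXCL5, CXCL16, CSF2RB, IL10RA and IFNAR2, and the 8 added at 18 h were CCL2, CCL8, CXCL5, CXCL16, CSF1R, IL4R, IL10RA and IFNAR2. Without this array 18.3% of the 9155 genes were called at 6 h and 19.5% at 18 h, with 1 probe set for each gene. The members' shares of calls in either direction were then near those of all genes. Their shares of up regulated calls were higher than those of probe sets. These were 14 of 76 at 6 h and 13 of 76 at 18 h, against 1491 and 1600 of 24016 probe sets. Probe sets are not a like base for members, since genes were called more often (18.3% against 14.6% at 6 h, 19.5% against 15.2% at 18 h). The up regulated share of the 9155 genes without this array was not counted, so no excess over genes is shown. The 6 h calls of CXCR4, CXCL8, CCL20, IL4R and IFNAR1 and the 18 h calls of CXCR4, IFNAR1, CSF2RB, CSF2 and IL13RA1 were also made without it, and that of CCL21 was not. The labels give no reason to leave control replicate 3 out. This array was singled out because members of this group were high in it. Calls gained without it follow in part from that choice, and their p-values take no account of it.

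**Figure D4:**
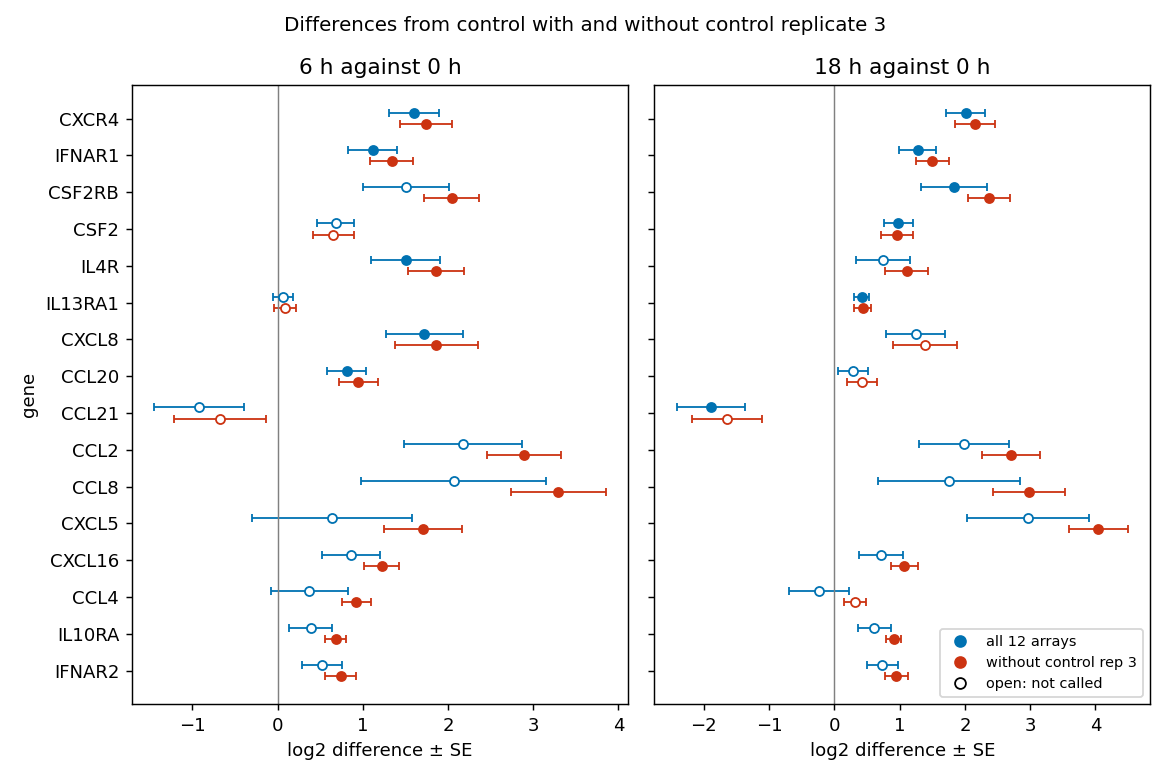
Log2 differences from 0 h (horizontal axis, ± standard error) at 6 h and 18 h are plotted for 16 members, with all 12 arrays (blue) and without control replicate 3 (red); filled points were called at an adjusted p under 0.05 and open points were not. The differences of CXCR4 and CSF2 hardly move, whereas those of CCL2, CCL8 and CXCL5 grow by 0.7 to 1.2 log2 units and their errors shrink.

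Differences between treated times were few. At 18 h against 3 h, 1 member was called (2.84% of probe sets): CXCR4 was 3.6-fold higher at 18 h (log2 1.85 ± 0.35, adjusted p = 0.021), and 9 members had an unadjusted p under 0.05. The call was lost without 3 h replicate 3, 18 h replicate 1 or 18 h replicate 3 (adjusted p up to 0.0758), and with only the arrays of these times (adjusted p = 0.0829), where CXCL5 was called instead. At 6 h against 3 h, 0 members were called by limma (8 at an unadjusted p under 0.05; 0.237% of probe sets called), and the difference of CXCR4 was log2 1.44 ± 0.35 (adjusted p = 0.127). At 18 h against 6 h, 0 members were called by limma (4 at an unadjusted p under 0.05; 0.45% of probe sets called). A rise that was called at 6 h but not at 18 h, as for CXCL8, CCL20 and IL4R, is therefore not shown to have faded between those times.

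Of 27 genes that pass on or limit these signals, 3 (11.1%) were called at 6 h and 4 (14.8%) at 18 h, shares near the 14.2% and 15.9% of all genes. Of 6 JAK and STAT transducers measured, 0 were called at 6 h, and at 18 h JAK1 was up regulated (log2 0.52 ± 0.14, adjusted p = 0.0379) and STAT4, which acts below the interleukin 12 receptor, was down regulated (log2 -0.98 ± 0.22, adjusted p = 0.0145). Of 10 brakes on cytokine receptors, PTPN2, a phosphatase that acts on JAK proteins, was up regulated at 6 h (log2 0.40) and 18 h (log2 0.58, adjusted p = 0.00455), and PIAS1 was down regulated at 6 h (log2 -0.41, adjusted p = 0.0164). SOCS3, a feedback inhibitor of cytokine receptors, had differences of 1.82 ± 0.56, 1.50 ± 0.50 and 1.53 ± 0.50 at the 3 times and was not called with all arrays. Of 11 genes of chemokine receptor signalling, ARRB1 was up regulated at 6 h (log2 0.55, adjusted p = 0.0393) and GRK5 down regulated at 18 h (log2 -0.56, adjusted p = 0.045), a call that was lost without control replicate 3 (log2 -0.50, adjusted p = 0.0792). Without that array 7 of the 27 genes (25.9%, against 18.3% of all genes) were called at 6 h and 5 (18.5%, against 19.5%) at 18 h, and SOCS3 was then called at 6 h (log2 1.87, adjusted p = 0.0201) and 18 h (log2 1.89, adjusted p = 0.0176). At 3 h none of these genes was called by limma; 4 had an unadjusted p under 0.05.

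Of 24 related ligands and receptors outside the symbol rule, 4 (16.7%) were called at 6 h and 3 (12.5%) at 18 h, again near the shares of all genes (14.2% and 15.9%). Of 15 other cytokines and receptor subunits, TGFB1 was up regulated at 6 h (log2 1.39 ± 0.30) and 18 h (log2 1.97 ± 0.30, adjusted p = 0.002), TNFRSF1B, a receptor of tumor necrosis factor, at 6 h (log2 0.54) and 18 h (log2 1.22 ± 0.15, adjusted p = 0.000736), and KIT, the receptor of stem cell factor, at 6 h (log2 1.09, adjusted p = 0.045; 0.0649 without control replicate 3). Of 9 other chemokines and atypical chemokine receptors, ACKR1, a scavenging receptor of venular endothelium and red cells, was up regulated at 6 h (log2 1.16, adjusted p = 0.0413) and PF4, a platelet chemokine, at 18 h (log2 1.32, adjusted p = 0.00292).

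Leukocyte markers moved with some of the same arrays. For the counts below, 14.2% of all genes were called at 6 h and 15.9% at 18 h. Without control replicate 3 these shares were 18.3% and 19.5%. Of 8 markers of all leukocytes 1 was called at 6 h (LCP1) and 3 at 18 h (LCP1, LAPTM5 and TYROBP), all up regulated, and 7 of 8 at 18 h without control replicate 3. Of 13 macrophage and monocyte markers 1 was up regulated at 6 h (CD14) and 4 at 18 h (CD14, CD68, CD86 and FCGR2B), and 7 at 18 h without control replicate 3. The macrophage list averaged 7.84 to 7.89 in control replicates 1, 2 and 4, 9.27 in control replicate 3, 8.23 to 8.55 at 6 h and 8.50 to 9.26 at 18 h. PTPRC, the common leukocyte antigen, had a dim probe set with a mean of 5.53 at 0 h and 5.51 at 18 h. Of 9 endothelial markers 3 were called up and 1 down at 6 h, and 4 up and 1 down at 18 h. Of 7 mural and smooth muscle markers 3 were called up at both times (2 and 3 without control replicate 3), of 7 fibroblast markers 0 at 6 h and 3 up at 18 h (1 and 3 without it), of 4 B cell markers and 3 red blood cell markers 0 at either time, and of 10 steroidogenic markers 2 down at 6 h and 6 down at 18 h. How much of the change of each chemokine or receptor went with these cell types was not tested.

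**Figure D5:**
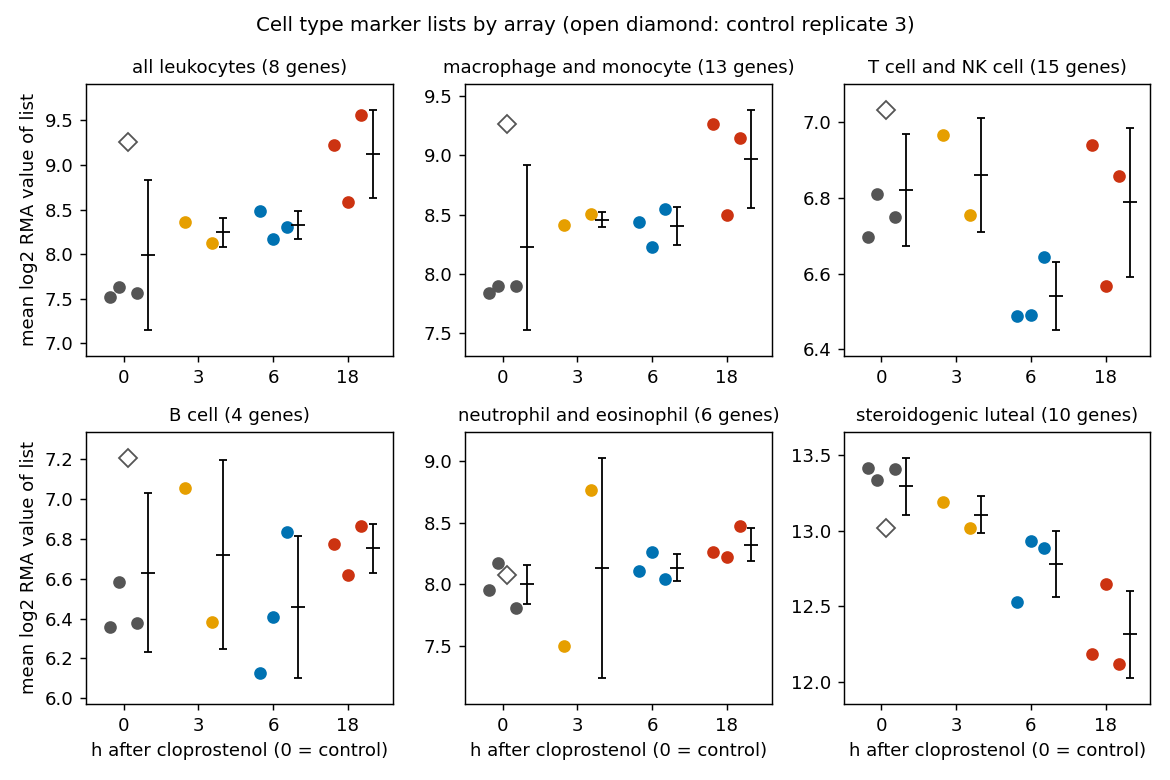
Mean log2 RMA value of each marker list (vertical axis, a scale of its own for each list; members of the chemokine and cytokine group left out of the lists) is plotted against hours after cloprostenol (0 = control), with points for arrays, the open diamond for control replicate 3, and bars for the group mean ± SD. The leukocyte and macrophage lists are high in control replicate 3 (9.26 and 9.27) and at 18 h, and the steroidogenic list is lowest at 18 h.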

How the data were processed

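The 12 samples were grouped by the time given in their labels: 4 controls (0 h), 2 at 3 h, 3 at 6 h and 3 at 18 h. The deposited values are log2 expression values that the authors obtained by RMA, which corrects background, normalizes arrays to each other and summarises each probe set. No software version or chip definition is given in the sources used here, and the arrays' scanner files were not analysed here. RMA draws small differences at low signal together, so fold changes of dim members can be understated, and because buffalo RNA was bound to cattle probes levels of different probe sets cannot be compared. Array medians were within 7.09 and 7.17. Columns of samples not in the labels numbered 0.

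Of 24128 probe sets, 112 controls were left out. Symbols came from the platform annotation, which refers to cattle genes: 13292 probe sets had 1 symbol, 86 several and 10638 none. Of the 76 members 15 had several probe sets, and 67 had a symbol in the RefSeq table of buffalo genes. Sequences are not shown.

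In R 4.3.3 with limma 3.58.1, 4 group means were fitted to all 12 arrays (lmFit, contrasts.fit, eBayes at default settings) and all 6 contrasts were tested, two-sided, with Benjamini-Hochberg adjustment over 24016 probe sets within each contrast. The 3 contrasts with 0 h were also tested together by a moderated F test. The steps were tested on simulated data. P-values measure the spread between animals, and precision is limited by the number of arrays.

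Named members were those called in any contrast, the 2 with the lowest F test p in each role group with none called, and a list of well-known genes. The members, lists and rules were chosen with earlier results of these data known, the likeness of control replicates 1 and 4 among them. Other settings tried were leaving out the 40% dimmest probe sets, trended and robust eBayes, a repeated quantile normalization, centring on array medians, a fit over 1 probe set per gene, the mean of all probe sets of a gene, only the arrays of the times compared, control replicates 1 and 4 averaged, the replicate number as a block, a minimum change of 1 log2 unit, and each array left out in turn. Control replicate 3 left out together with control replicates 1 and 4 averaged, and the alternatives of the F test, were added after seeing the data.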

Additional observations from a re-analysis of the deposited data

Results flagged for a closer look

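A control array stood far from the other controls (by Dixon's criterion) in 7 of the 33 named members. It was control replicate 3 for CCL2 (12.89), CCL4 (10.11), CCL8 (10.87), CXCL10 (12.11) and IL2RG (9.07), in each case the highest control. LIF was high in control replicate 1 (6.75) and OSM low in control replicate 2 (5.28), both by a small amount on the log2 scale. Chance alone would mark about 1 in 20 groups; 13 of 76 members (17.1%) and 6.96% of all probe sets were so marked, 11.8% and 1.78% with control replicate 3 as the high array. The effect of cloprostenol on CXCR4 differed between 18 h and 3 h by log2 1.85, a contrast in which both times share the same controls.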

How the results depend on the processing

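The number of members called was 5 at 6 h and 6 at 18 h. With control replicates 1 and 4 averaged it was 1 (CXCR4) and 3 (CXCR4, CSF2 and IFNAR1), and 1 for the F test in place of 3. Same-numbered samples did not deviate together (r from -0.26 to 0.19, median -0.01, over 15 pairs), so the numbers were not taken as a pairing; with the replicate block 1 member was called at 6 h (CCL20), 2 at 18 h (CXCR4 and CCL21) and 0 at 18 h against 3 h, where it had been 1. With control replicate 3 left out and replicates 1 and 4 averaged, a setting chosen after seeing the data, 9 were called at 6 h. Of the calls gained without control replicate 3 alone, those of CCL3, CCL11, CXCL5 and IFNAR2 at 6 h were then not made. Neither were those of CSF1R and IL4R at 18 h and of IL10RA at 3 h. Calls of CXCL8 and CCL20 at 6 h and of CCL21, CSF2 and IL13RA1 at 18 h were also lost in this setting. Leaving out each array in turn gave 0 to 1 at 3 h, 1 to 15 at 6 h and 2 to 13 at 18 h against 0 h, 0 to 1 at 6 h against 3 h, 0 to 3 at 18 h against 3 h, 0 at 18 h against 6 h and 1 to 13 for the F test; the highest counts against 0 h at 6 h and 18 h came without control replicate 3. A fit without 1 array at 3 h assumes that the lone sample left varies like the other groups. Under the remaining settings counts stayed within 1.5 times those given, but not always with the same members: with only the arrays of the times compared, CCL20 was lost and CSF2 and OSMR gained at 6 h, CSF2RB lost at 18 h, and CXCL5 replaced CXCR4 at 18 h against 3 h. With trended and robust eBayes CCL21 and CSF2RB were lost at 18 h. Of the differences of single named members under the alternatives, 2155 kept their side of the threshold, 36 became called and 81 lost a call. Only 1 was counted as reversed: IFNGR2, 3 h against 0 h, was 0.16 with its brightest probe set and -0.0106 with the mean of its probe sets, neither called. Changes of sign were not counted where neither value was called and the main difference was under its standard error, so the 2155 include some. For example, the 18 h mean of CCL4 (8.23) lay below the mean of all controls (8.47) and above that of the controls without replicate 3 (7.92). The cause of these shifts was not tested.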
